A study of Mus musculus with 13 samples.

Results

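Enzymes of the lung that handle foreign compounds and retinal were followed here, 9 in all: the cytochrome P450 enzymes Cyp2b10, Cyp2f2, Cyp4b1 and Cyp1a1, the flavin monooxygenases Fmo1 and Fmo2, the carboxylesterase Ces1d, the aldehyde dehydrogenase Aldh1a1 and the sulfotransferase Sult1a1. They were chosen by name as enzymes of lung, without a measured value in the rule but with earlier results of these data known. All 9 were found among the 46679 gene IDs of the tables. P450 enzymes and flavin monooxygenases add oxygen to a compound, carboxylesterases split esters, aldehyde dehydrogenases turn aldehydes into acids, and sulfotransferases attach a sulfate that makes a product easier to excrete. The club cells of the mouse airway are known for a high content of P450 enzymes, which also turn some inhaled compounds into toxic products. Aldh1a1 oxidizes retinal to retinoic acid, the ligand of the retinoic acid receptors.

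The study sequenced total RNA, depleted of ribosomal RNA, from female FVB mice aged 10 weeks. The groups were 3 mammary tumors, 4 lungs of mice that carried such a tumor (tumor-bearing lungs) and 4 lungs of mice without one (normal lungs). Tumors came from 250000 Met1 cells, a line of mouse mammary cancer, placed into the inguinal mammary fat pad when mice were 8 weeks old, 2 weeks before the tissue was collected. Tumors 6877, 6880 and 6881 and 3 of the tumor-bearing lungs came from the same animals. Met1 is 1 line, and a carrier injection of the mice without a tumor is not given in the sources used here. Preparation batch 1 held tumor-bearing lungs 6879, 6880 and 6881 and normal lungs 6886 and 6888. Batch 2 held the 3 tumors, tumor-bearing lung 6877, normal lungs 6887 and 6893 and a repeat of 6886 and 6888. The 13 libraries held 8321037 to 13982903 estimated counts, and protein-coding genes took 45.6 to 69.6% of them, with the highest shares in the batch 1 libraries of the normal lungs. Of the markers of each tissue, Scgb1a1, the secretoglobin of club cells, lay at 0.119 to 2.70 TPM in tumors, 776 to 2020 TPM in tumor-bearing lungs and 1660 to 2350 TPM in normal lungs. Krt18, a keratin of luminal epithelium, lay at 10.1 to 19.1 TPM in tumors, 1.06 to 2.06 TPM in tumor-bearing lungs and 1.91 to 5.42 TPM in normal lungs. Krt8 overlapped between tumors (7.40 to 13.7 TPM) and normal lungs (2.40 to 8.04 TPM). Krt19 went the other way, at 0.286 to 0.408 TPM in tumors and 3.94 to 7.81 TPM in tumor-bearing lungs. Of 11 mammary epithelial markers tested against tumor-bearing lung, edgeR called 8 higher and 2 lower in tumors.

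The genes lie on 6 chromosomes of GRCm38. Fmo1 (ENSMUSG00000040181, chr1:162829561-162866610) and Fmo2 (ENSMUSG00000040170, chr1:162874317-162898726) lie close together on the minus strand of chromosome 1. Chromosome 7 carries Cyp2b10 (ENSMUSG00000030483, chr7:25897620-25926624, plus strand), Cyp2f2 (ENSMUSG00000052974, chr7:27119909-27133660, plus strand) and Sult1a1 (ENSMUSG00000030711, chr7:126672865-126676432, minus strand). Cyp4b1 lies at chr4:115624725-115647723 on the minus strand (ENSMUSG00000028713), Ces1d at chr8:93166068-93197838 on the minus strand (ENSMUSG00000056973), Cyp1a1 at chr9:57687928-57703824 on the plus strand (ENSMUSG00000032315) and Aldh1a1 at chr19:20492715-20643465 on the plus strand (ENSMUSG00000053279). All 9 are annotated as protein-coding.

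The stretches of 250 bases before the transcription start of 4 members are shown because these genes span the range of levels described below, from Fmo2, the member with the highest TPM in lung, to Cyp1a1, the lowest. They are from RefSeq on GRCm38.p6, 5′ to 3′ on the strand of the gene, and capitals mark motif matches on either strand. The motifs searched were GCGTG, the core bound by the aryl hydrocarbon receptor Ahr, and TGTTTAC, a forkhead motif. Also searched were TTGCNNAA, a pattern of C/EBP factors, and TATAAA, the TATA box. None of these patterns contains another.
Cyp1a1 (chr9:57697363-57697612, plus strand): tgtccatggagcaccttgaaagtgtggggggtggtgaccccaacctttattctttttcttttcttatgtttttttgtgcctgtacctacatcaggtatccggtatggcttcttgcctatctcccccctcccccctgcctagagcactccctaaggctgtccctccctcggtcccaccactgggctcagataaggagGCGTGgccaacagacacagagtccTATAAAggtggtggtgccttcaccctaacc
Cyp2b10 (chr7:25897408-25897657, plus strand): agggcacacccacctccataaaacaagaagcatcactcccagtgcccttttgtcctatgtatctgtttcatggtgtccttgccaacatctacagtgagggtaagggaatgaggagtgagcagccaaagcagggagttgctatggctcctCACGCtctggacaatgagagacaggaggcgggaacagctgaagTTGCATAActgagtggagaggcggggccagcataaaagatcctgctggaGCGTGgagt
Cyp2f2 (chr7:27119705-27119954, plus strand): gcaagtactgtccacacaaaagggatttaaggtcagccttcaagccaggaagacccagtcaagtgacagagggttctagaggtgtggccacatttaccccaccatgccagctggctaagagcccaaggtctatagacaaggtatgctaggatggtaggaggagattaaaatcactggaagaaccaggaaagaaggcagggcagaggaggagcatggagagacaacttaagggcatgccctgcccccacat
Fmo2, downstream of its 2 starts (chr1:162898494-162898743, minus strand): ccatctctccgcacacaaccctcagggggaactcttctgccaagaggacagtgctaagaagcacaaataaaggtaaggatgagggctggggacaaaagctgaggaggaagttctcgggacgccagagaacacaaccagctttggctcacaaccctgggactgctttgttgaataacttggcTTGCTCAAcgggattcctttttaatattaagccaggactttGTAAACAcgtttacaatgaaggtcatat
Counting the last base before the start as −1, Cyp1a1 has GCGTG at −54 to −50 and TATAAA at −30 to −25. Cyp2b10 has GCGTG at −101 to −97 on the opposite strand, where it reads CACGC as printed, and at −9 to −5, with a C/EBP match at −58 to −51. The Fmo2 stretch has a C/EBP match at −69 to −62 and a forkhead match at −28 to −22 on the opposite strand, and the Cyp2f2 stretch has none of the 4 motifs in this window. Of 32841 promoter stretches of the same length, 28.2% hold GCGTG, 3.17% TGTTTAC, 9.57% TTGCNNAA and 12.4% TATAAA, so these matches are a description of the letters.

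In lung the members spanned a wide range of abundance, and Fmo2 led. Levels between genes are compared in TPM, an abundance scaled by transcript length and library total. Fmo2, the flavin monooxygenase typical of the lung of most mammals, averaged 106 ± 33.8 TPM in tumor-bearing lungs and 240.0 ± 144 TPM in normal lungs (SD, n = 4 each). It alone took 46.9 to 59.0% of the summed TPM of the 9 genes in tumor-bearing lungs and 50.7 to 66.9% in normal lungs. Next came Cyp2f2, the club cell P450 known for activating naphthalene, at 36.1 ± 9.38 TPM in tumor-bearing and 50.7 ± 16.5 TPM in normal lungs (SD, n = 4 each). Both places were the same in 4 of 4 lungs of each group, though the ranges of Cyp2f2 and the next gene overlapped in normal lungs.

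A middle group followed closely. Ces1d, a carboxylesterase that also hydrolyses triacylglycerol, averaged 16.7 ± 3.12 TPM in tumor-bearing and 28.5 ± 10.54 TPM in normal lungs (SD, n = 4 each). Fmo1, a flavin monooxygenase with a broad range of drug substrates, averaged 11.98 ± 4.71 TPM in tumor-bearing and 18.3 ± 7.66 TPM in normal lungs. Aldh1a1 averaged 9.53 ± 2.42 TPM in tumor-bearing and 18.7 ± 8.89 TPM in normal lungs. Neighbours in this stretch of the order had overlapping ranges: Aldh1a1 stood above Fmo1 in 2 of 4 normal lungs and below it in 3 of 4 tumor-bearing lungs. Cyp4b1, a P450 that activates the lung toxin ipomeanol, averaged 9.06 ± 2.15 TPM in tumor-bearing and 16.1 ± 7.63 TPM in normal lungs, and Cyp2b10, a P450 induced in liver by the receptor Nr1i3, averaged 6.29 ± 2.02 TPM in tumor-bearing and 12.02 ± 5.66 TPM in normal lungs (SD, n = 4 each).

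At the low end, Sult1a1, which sulfates phenols, averaged 1.09 ± 0.201 TPM in tumor-bearing lungs and 2.23 ± 0.950 TPM in normal lungs (SD, n = 4 each). Cyp1a1, the P450 that Ahr ligands induce, averaged 0.0279 ± 0.00968 TPM in tumor-bearing lungs and 0.0439 ± 0.0139 TPM in normal lungs. Its estimated counts were 6.32 to 18.3 a library in tumor-bearing lungs and 9.31 to 16.8 in the normal lungs of 1 library a mouse. Both genes stood below the other 7 members in all 8 lungs. The means of all 9 members were lower in TPM in tumor-bearing than in normal lungs, but TPM are not scaled for the composition of a library, and the normal lungs of batch 1 had the highest protein-coding share (68.2 to 69.6%, against 49.0 to 59.0% in the batch 1 lungs of tumor-bearing mice). Differences between groups are therefore given in CPM, counts scaled to library size and by TMM, which sets the bulk of genes equal between libraries.

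**Figure D1:**
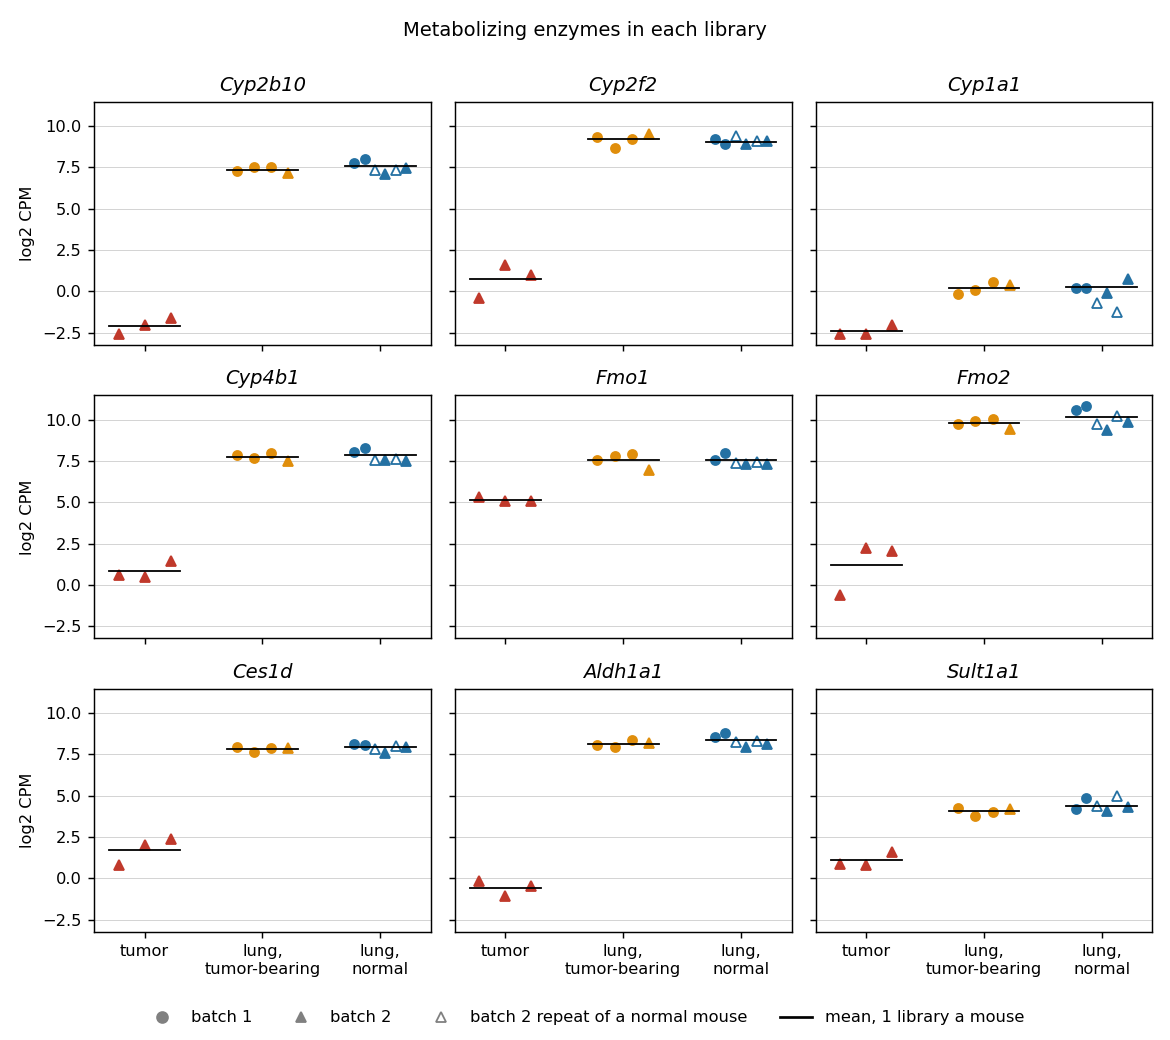
Log2 CPM of each member in each library (prior count of 2), for tumors, tumor-bearing lungs and normal lungs; circles are batch 1, triangles batch 2, open triangles the batch 2 repeats of normal mice 6886 and 6888, and lines the mean over 1 library a mouse. For all 9 genes the 3 tumors lie below all lungs, while both groups of lungs overlap.

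The comparison the series names is that of lungs with and without a distal mammary tumor. None of the 9 enzymes passed the test, and the values of both groups of lungs overlapped for each of them. The lowest unadjusted p belonged to Fmo2, and the next to Cyp2b10. Fmo2 was at 865, 956, 1057 and 696 CPM in tumor-bearing lungs 6879, 6880, 6881 and 6877, against 1504, 1781, 656 and 935 CPM in normal lungs 6886, 6888, 6887 and 6893. The high values were those of the batch 1 normal lungs, and normal lung 6887 lay below every tumor-bearing lung. With batch in the fit the log2 fold change was −0.56 (SE 0.17, 95% interval −0.95 to −0.17, unadjusted p = 0.00993, adjusted p = 0.235 with edgeR's quasi-likelihood test and Benjamini-Hochberg adjustment over 16727 genes), and DESeq2 gave an adjusted p of 0.0600.

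Cyp2b10 was at 153, 182, 181 and 142 CPM in tumor-bearing lungs 6879, 6880, 6881 and 6877, against 215, 262, 136 and 174 CPM in normal lungs 6886, 6888, 6887 and 6893. As with Fmo2, the batch 1 normal lungs were the highest and normal lung 6887 the lowest of the 8. Its log2 fold change was −0.34 (SE 0.14, interval −0.66 to −0.0254, unadjusted p = 0.0371, edgeR adjusted p = 0.329).

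The other P450 enzymes did not share a direction. Cyp2f2 was at 654, 417, 591 and 727 CPM in the tumor-bearing lungs, in the same order of mice, against 594, 480.1, 479.8 and 550.3 CPM in the normal lungs. The tumor-bearing lungs held both the highest and the lowest value, and the log2 fold change was 0.21 (interval −0.19 to 0.62). Cyp4b1 was at 228, 208, 249.8 and 182 CPM in tumor-bearing lungs against 262, 315, 185 and 183 CPM in normal lungs, with a log2 fold change of −0.22 (interval −0.50 to 0.0689). Cyp1a1 was at 0.744, 0.899, 1.30 and 1.16 CPM in tumor-bearing lungs against 0.995, 0.975, 0.761 and 1.55 CPM in normal lungs. Its log2 fold change was 0.0171 with an interval of −0.82 to 0.86, so differences of nearly 2-fold either way lay within the interval.

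Fmo1, the neighbour of Fmo2, was at 189.7, 222, 245 and 125 CPM in tumor-bearing lungs against 191, 247, 157 and 159 CPM in normal lungs, with a log2 fold change of −0.11 (interval −0.44 to 0.22). Ces1d was at 249.4, 203, 239 and 231 CPM in tumor-bearing lungs against 274, 263, 193 and 251 CPM in normal lungs, with a log2 fold change of −0.11 (interval −0.42 to 0.20). For these 2 genes the groups covered nearly the same range. Aldh1a1 was at 263, 240.8, 329 and 285 CPM in tumor-bearing lungs against 377, 449.9, 248 and 279 CPM in normal lungs, with a log2 fold change of −0.32 (interval −0.70 to 0.0651). Sult1a1 was at 19.1, 13.2, 15.8 and 18.3 CPM in tumor-bearing lungs against 18.5, 29.4, 16.9 and 19.7 CPM in normal lungs, with a log2 fold change of −0.36 (interval −0.84 to 0.11). Normal lung 6887 had the lowest CPM of its group for all members but Cyp4b1.

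edgeR called 0 of the 9 members at an adjusted p of 0.05, and voom and DESeq2 also called 0. Of all 16727 genes tested edgeR called 0.0239% lower and 0.0120% higher, and of 12177 tested by DESeq2 2.29% were called lower and 1.21% higher. At an unadjusted p below 0.05, 2 members had negative and 0 had positive values, against 7.86 and 6.14% of all genes. Groups without overlap in CPM, 0 of the 9 members, made up 3.05% of genes on the lower and 2.65% on the higher side. The median log2 fold change of the members was −0.22, beside 0.0142 over all genes. No member passed in any of the 22 alternatives. The number of all genes called, 6, was less steady: it was 0 when any of tumor-bearing lungs 6879, 6880 and 6881 or normal lung 6886 was left out (1512 to 2158 genes at unadjusted p below 0.05), 221 with tumor-bearing lung 6877 left out and 16 with normal lung 6887 left out, and DESeq2 called 426 of 12177 genes.

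Several members differed between the preparation batches by as much as between the groups. The repeats of normal mice 6886 and 6888 give batch 2 minus batch 1 within 1 animal. Fmo2 differed by −0.80 and −0.62 on the log2 scale in mice 6886 and 6888, with 865 and 1163 CPM in batch 2 against 1504 and 1781 CPM in batch 1. Cyp2b10 differed by −0.42 and −0.67, Cyp4b1 by −0.46 and −0.68, Aldh1a1 by −0.32 and −0.48, and Fmo1 by −0.19 and −0.52. Ces1d differed by −0.26 and −0.0104, and Cyp1a1, on few counts, by −0.92 and −1.41. Cyp2f2 (0.19 and 0.20) and Sult1a1 (0.18 and 0.0799) had positive values in both mice. All members thus moved the same way in both mice, 7 lower and 2 higher, as 36.9% of all genes did downward and 34.6% upward. The middle 50% of all genes lay between −0.36 and 0.43 in mouse 6886 and between −0.39 and 0.46 in mouse 6888.

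**Figure D2:**
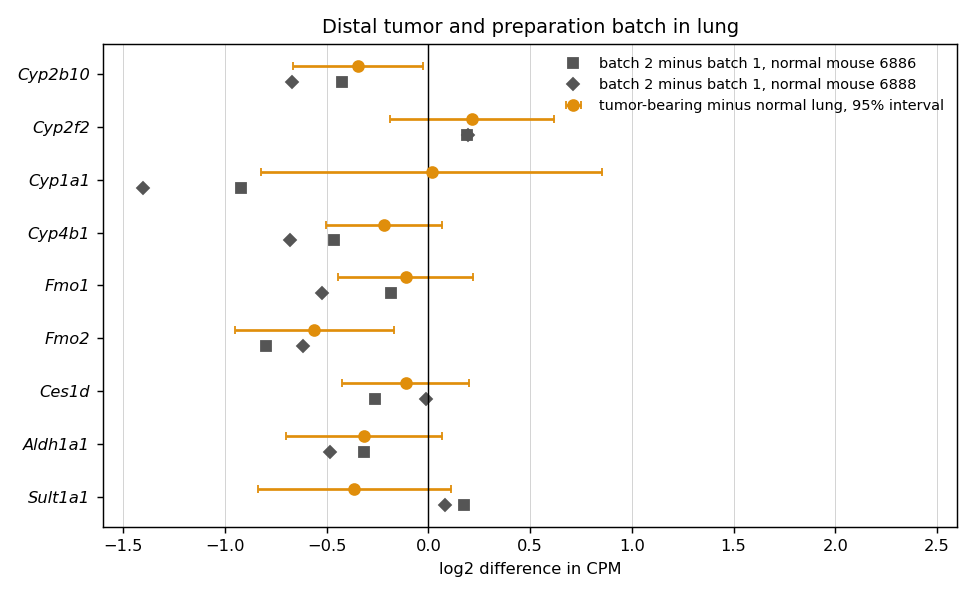
Log2 differences in CPM of each member. The orange points give tumor-bearing minus normal lung, with a 95% interval derived from the edgeR test statistic (8 lungs, batch in the fit). The grey marks give batch 2 minus batch 1 in normal mice 6886 and 6888. The difference of Fmo2 between the groups (−0.56) is of the size of its shift between preparations (−0.80 and −0.62).

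Within batch 1 alone the 3 tumor-bearing lungs lay below both normal lungs for 5 members: Fmo2 (log2 difference −0.78), Aldh1a1 (−0.58), Cyp2b10 (−0.47), Cyp4b1 (−0.33) and Ces1d (−0.22), and 20.8% of all genes did so, with 17.7% above. Sult1a1 (−0.55), Cyp1a1 (−0.0331), Cyp2f2 (0.0284) and Fmo1 (0.00543) overlapped there. Within batch 2 the single tumor-bearing lung 6877, set against 4 normal lungs that include both repeats, lay below all for Fmo1 (−0.39) and Cyp4b1 (−0.0527), as 23.9% of genes did, and above all for Cyp2f2 (0.38), as 24.9% did. In that batch the difference of Fmo2 was −0.35, of Cyp2b10 −0.16, of Aldh1a1 −0.00542 and of Ces1d −0.00181. The 5 members that separated in batch 1 thus had smaller values in batch 2, where Cyp4b1 alone among them separated. A group by batch interaction over the 8 lungs, which left 4 residual degrees of freedom and assumed that the lone tumor-bearing lung of batch 2 varied like the others, called 0 of the 9 members (edgeR, lowest adjusted p = 0.541 for Aldh1a1, 0 members at unadjusted p below 0.05) and 0.0658% of all genes. Its intervals were wide: the difference in batch 2 minus that in batch 1 was 0.65 for Aldh1a1 (interval −0.00908 to 1.32) and 0.55 for Fmo2 (interval −0.18 to 1.27).

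Markers of several lung cell types stood beside these values, and the part of each in the members' values was not tested. Their log2 fold changes are from the scaled fit, while their summed levels are in TPM, which are not scaled for library composition. On log2 TPM the median of all genes between the lungs was −0.23 and −0.54 (pseudocounts 1 and 0.1), so the sums of both groups carry that shift. Of alveolar type 2 markers 9 of 10 had negative log2 fold changes (median −0.25, edgeR called 0, 4 at unadjusted p below 0.05), and their summed level was 428 to 1350 TPM in tumor-bearing and 1410 to 1800 TPM in normal lungs. Of blood vessel endothelial markers 9 of 12 had negative values (median −0.26, 0 called, 5 at unadjusted p below 0.05), with a summed level of 64.1 to 141 TPM in tumor-bearing and 91.9 to 265 TPM in normal lungs. Of the 6 tested club cell markers 4 had positive values (median 0.25, 0 called, 0 at unadjusted p below 0.05), with 831 to 2090 TPM in tumor-bearing and 1730 to 2430 TPM in normal lungs. None of these club, type 2 and endothelial markers was at 0 in all lungs of a group. Neutrophil markers had a median of 2.15 (7 tested, edgeR called 0, 6 positive at unadjusted p below 0.05, DESeq2 called 4 higher), with a summed level of 7.09 to 31.6 TPM in tumor-bearing and 4.13 to 16.3 TPM in normal lungs. Type 1 markers had a median of −0.24 (9 of 10 negative, 0 called, 1 at unadjusted p below 0.05). Cardiac muscle markers had a median of 2.23 (5 of 5 positive, edgeR and DESeq2 called 0, 0 at unadjusted p below 0.05), with 1.11 to 27.4 TPM in tumor-bearing and 1.33 to 3.03 TPM in normal lungs. In bulk tissue fewer cells of a type and less RNA per cell cannot be told apart. DESeq2 called 2 type 2 and 2 endothelial markers lower.

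Across the 8 lungs, after the mean of each batch was subtracted, the members fell into loose company. The Pearson r of log2 CPM was 0.97 between Cyp2b10 and Fmo2, 0.95 between Cyp4b1 and Aldh1a1 and 0.89 between Fmo2 and Aldh1a1, and it was −0.67 between Cyp2f2 and Fmo1. With Scgb1a1, r was 0.78 for Cyp2f2, 0.75 for Ces1d, 0.69 for Aldh1a1, 0.66 for Sult1a1 and 0.63 for Cyp4b1. It was 0.36 for Fmo2, 0.21 for Cyp2b10, 0.16 for Cyp1a1 and −0.35 for Fmo1. These are descriptions over 8 lungs that differ in library depth and come from both preparation batches. Only batch means were subtracted, so differences between tumor-bearing and normal lungs remain in r. Among 13643 genes, those most like a member were Wwc2 and Fxr1 for Cyp2b10 (r = 0.989 and 0.987), Cbs and Oas1b for Cyp2f2 (0.975 each), Zfp418 and Ear10 for Cyp4b1 (0.990 and 0.975), and Ubxn7 and Pura for Fmo1 (0.989 and 0.984). They were Wac and Exoc3 for Fmo2 (0.996 and 0.986), Ahdc1 and Herc6 for Ces1d (0.968 and 0.966), Stx12 and Slc35e4 for Aldh1a1 (0.990 and 0.984), Hspa2 and Ly6c1 for Sult1a1 (0.995 and 0.992), and Rhof and Gpbp1l1 for Cyp1a1 (0.991 and 0.973). The largest of many r over 8 lungs is high for almost any gene, and over all 10 lung libraries the r of Fmo2 with Exoc3 was 0.406 and that of Cyp1a1 with Rhof 0.742.

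The second comparison sets the mammary tumors against the lungs of tumor-bearing mice. All 9 enzymes were lower in the tumors, by amounts that differed widely: Fmo1 and Sult1a1 kept 18.0 and 12.1% of their level in tumor-bearing lung, Cyp2b10 kept 0.0473%. The P450 enzymes Cyp2b10 and Cyp1a1 were near the limit of detection. Cyp2b10 was at 0, 0.0779 and 0.156 CPM in tumors 6877, 6880 and 6881, against 142 to 182 CPM in tumor-bearing lungs. It had 3 counts in all tumors together, so that its level was 1910-fold lower by the ratio of counts (95% counting interval 653 to 9250). Cyp1a1 was at 0, 0 and 0.0778 CPM, which is 1 count in all, against 0.744 to 1.30 CPM in tumor-bearing lungs, a ratio of 35.6-fold (counting interval 6.10 to 1430). All 3 tumors lay below all lungs for both genes, and with such few counts the fitted values depend on the prior of the fit. Counting intervals cover counting error alone.

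Cyp2f2 was at 0.597, 2.88 and 1.79 CPM in tumors 6877, 6880 and 6881, against 417 to 727 CPM in tumor-bearing lungs, and its log2 fold change was −8.45 (SE 0.47). Cyp4b1 was at 1.31, 1.25 and 2.57 CPM in tumors against 182 to 249.8 CPM in tumor-bearing lungs, a log2 fold change of −6.58 (SE 0.30). Both P450 enzymes thus had low counts, 65 and 60 over the 3 tumors, and the source of these reads was not tested.

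Aldh1a1, the retinal dehydrogenase, was at 0.717, 0.312 and 0.545 CPM in the tumors against 240.8 to 329 CPM in tumor-bearing lungs, a log2 fold change of −8.85 (SE 0.35). Fmo2, the highest member in lung, was at 0.478, 4.44 and 4.05 CPM in tumors against 696 to 1057 CPM in tumor-bearing lungs, a log2 fold change of −7.58 (SE 0.59). Tumor 6877 held far less Fmo2 than tumors 6880 and 6881, and it was also the lowest of the 3 for Cyp2f2 and Ces1d, but the highest for Aldh1a1 and Fmo1. Ces1d was at 1.55, 3.82 and 5.06 CPM in tumors against 203 to 249.4 CPM in tumor-bearing lungs, a log2 fold change of −5.91 (SE 0.36). Sult1a1 was at 1.67, 1.56 and 2.80 CPM in tumors against 13.2 to 19.1 CPM in tumor-bearing lungs, a log2 fold change of −2.94 (SE 0.33).

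Fmo1 was the member with the most RNA in the tumors. It was at 39.1, 33.0 and 33.6 CPM in tumors 6877, 6880 and 6881, on 327 to 432 estimated counts a tumor, against 125 to 245 CPM in tumor-bearing lungs, and its log2 fold change was −1.99 (SE 0.20, interval −2.44 to −1.54). That interval overlapped with the interval of Sult1a1 (−3.67 to −2.21) but with those of none of the other 7 members. A test of the difference between the genes was not run. In TPM, Fmo1 averaged 2.51 ± 0.53 in tumors, above Fmo2 at 0.391 ± 0.279, Ces1d at 0.293 ± 0.152, Sult1a1 at 0.157 ± 0.0636 and Cyp2f2 at 0.119 ± 0.0670 (SD, n = 3 each). It took 61.5 to 85.6% of the summed TPM of the members in tumors, which was 3.13 to 4.05 TPM, against 4.34 to 7.04% in tumor-bearing and 4.15 to 6.23% in normal lungs. The ratio of Fmo1 to its neighbour Fmo2 in TPM was 43.6, 3.84 and 4.27 in tumors 6877, 6880 and 6881, against 0.0925 to 0.119 in tumor-bearing and 0.0652 to 0.123 in normal lungs. The shares and the ratio were chosen after their values were seen. An exact permutation test of the ratio, two-sided on log2 CPM, gave p = 0.0571 for tumors against either group of lungs, the smallest this design allows, and p = 0.171 between the lungs, and since the ratio was chosen for its values these p support nothing.

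**Figure D3:**
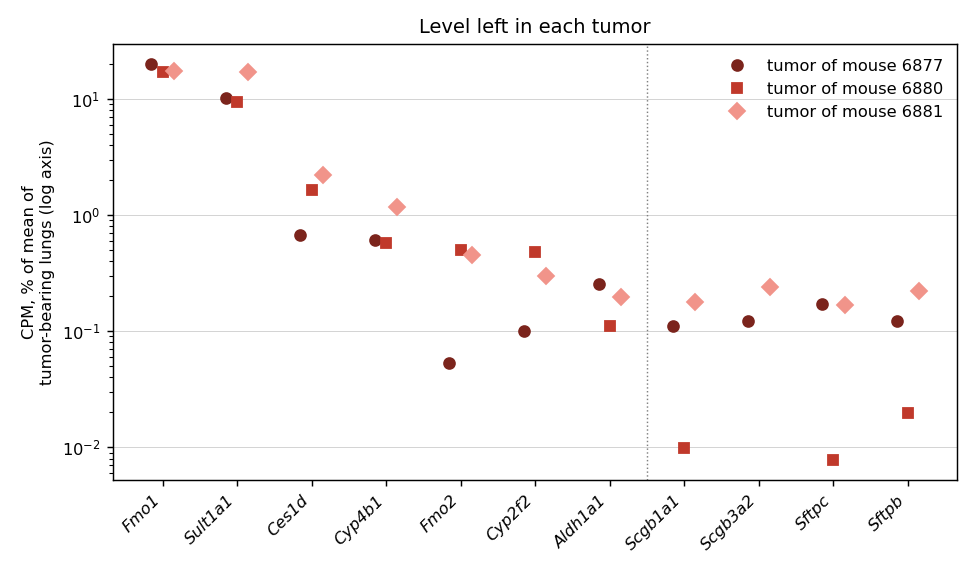
CPM of 7 members (left of the dotted line) and 4 epithelial markers of lung (right) in each tumor, as percent of the mean of the 4 tumor-bearing lungs, on a log axis; Scgb3a2 at 0 in tumor 6880 is not drawn, and Cyp2b10 and Cyp1a1 are left out for their 3 counts and 1 count. Fmo1 (16.9 to 20.0%) and Sult1a1 (9.37 to 16.9%) lie above the other members, and the markers lie between 0.00774 and 0.24%.

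edgeR called all 9 members lower, with adjusted p between 1.36e-08 for Cyp2b10 and 0.000665 for Cyp1a1 (quasi-likelihood test, Benjamini-Hochberg over 18297 genes), and 23.7% of all genes tested were called lower. The members were picked as enzymes of lung, so their calls in tumors against lung cannot be read like those of genes picked at random. The median log2 fold change was −6.58 for the members and −0.10 over all genes. All 3 tumors lay below all 4 tumor-bearing lungs for each member, as for 27.4% of genes. All tumors were in batch 2, where the single tumor-bearing lung was 6877, and against it the log2 differences were −9.22 for Cyp2b10, −8.78 for Cyp2f2, −8.73 for Aldh1a1, −8.23 for Fmo2, −6.67 for Cyp4b1, −6.13 for Ces1d, −3.13 for Sult1a1, −2.79 for Cyp1a1 and −1.83 for Fmo1. A further fit took the mouse as a block over the 3 animals that gave both tissues, with batch. Of these, only mouse 6877 had both tissues in the same batch, so the tissue difference in that fit rests on this animal. The log2 fold change of Cyp1a1 was −6.85 there, without a call. Leaving out tumor 6881, which held the single count of Cyp1a1, moved its fitted value to −6.77 and that of Cyp2b10 to −11.12, and both kept their call.

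**Figure D4:**
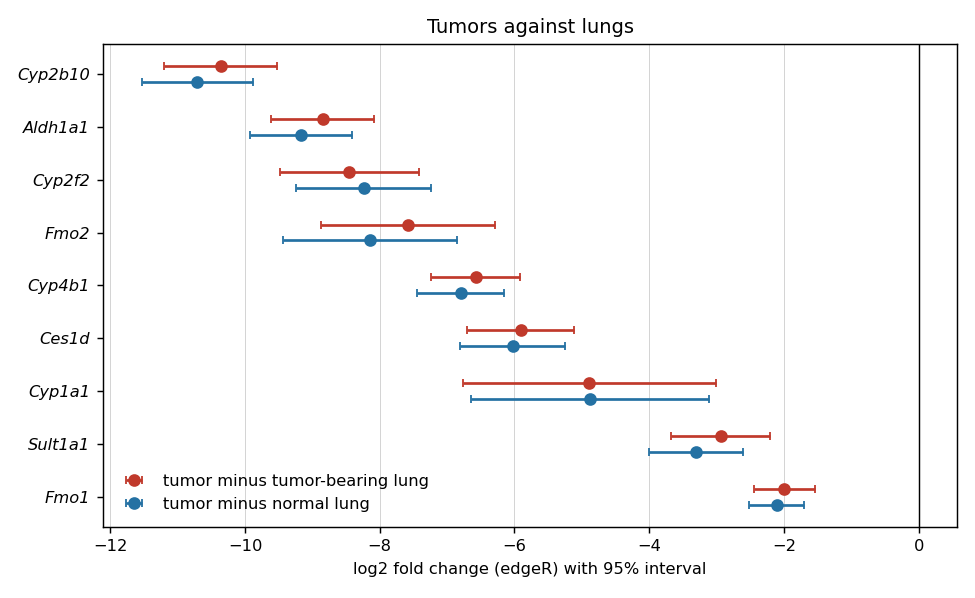
Log2 fold change of each member for tumor minus tumor-bearing lung (red) and tumor minus normal lung (blue). The 95% intervals were derived from the edgeR test statistic (11 libraries, batch in the fit). The 9 genes have the same order in both comparisons, which share the 3 tumors, from Cyp2b10 to Fmo1. The points of Cyp2b10 and Cyp1a1 rest on 3 counts and 1 count in the tumors. For these 2 genes the drawn intervals are narrower than the counting intervals, so they understate the uncertainty.

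Against normal lung, with the same tumors, edgeR also called all 9 members lower, and 24.7% of all genes were called lower and 24.5% higher. All tumors lay below all normal lungs for each member, as for 26.4% of genes. The log2 fold change was −9.17 (SE 0.35) for Aldh1a1, −8.24 (SE 0.46) for Cyp2f2, −8.14 (SE 0.59) for Fmo2, −6.80 (SE 0.29) for Cyp4b1 and −6.03 (SE 0.36) for Ces1d. It was −3.31 (SE 0.32) for Sult1a1 and −2.11 (SE 0.18) for Fmo1. Cyp2b10 was 2240-fold lower in tumors by the ratio of counts (interval 765 to 10800) and Cyp1a1 36.1-fold (interval 6.19 to 1450). The adjusted p of edgeR lay between 7.46e-09 for Cyp2b10 and 0.000391 for Cyp1a1. The tumors are shared with the comparison above, so the agreement in order is not a second observation.

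Most markers of lung cells were lower in the tumors than in tumor-bearing lung, and most markers of fat cells were higher. Of the alveolar type 2 markers edgeR called 9 of 10 lower in tumors than in tumor-bearing lung, of type 1 markers 9 of 10 with 1 higher, of blood vessel endothelial markers 12 of 12, of ciliated cell markers 8 of 10 and of tested club cell markers 4 of 7. The summed level of club cell markers was 10.9 to 24.2 TPM in tumors, with Bpifa1 and Lypd2 at 0, of which Hp, named after its values were seen, made up 8.14 to 20.9 TPM. The exceptions, named after their values were seen, included the water channel Aqp5, called higher, at 11.0 to 24.4 TPM in tumors against 3.31 to 6.44 TPM in tumor-bearing lungs, and the factors Etv5 (5.14 to 10.2 TPM in tumors against 2.77 to 9.94 TPM) and Foxj1 (0.355 to 0.607 TPM in tumors against 0.412 to 0.608 TPM), which were not called. Of the leading markers of type 2 and club cells, Sftpc, the surfactant protein of type 2 cells, was at 0.172, 0.00774 and 0.168% of its tumor-bearing lung level in tumors 6877, 6880 and 6881, and Scgb1a1 was at 0.110, 0.00981 and 0.178%. Tumor 6880 was the lowest for both markers. In CPM it was also the lowest for Cyp4b1, Fmo1, Aldh1a1 and Sult1a1, but the highest for Fmo2 and Cyp2f2. For Fmo2 this order did not hold in TPM (0.520 in tumor 6880 and 0.582 in tumor 6881).

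Of the adipocyte markers edgeR called 7 of 11 tested higher in tumors than in tumor-bearing lung and 1 lower, and their summed level was 23.5 to 52.2 TPM in tumors, 2.10 to 3.78 TPM in tumor-bearing lungs and 3.15 to 4.13 TPM in normal lungs. Adipoq, the fat cell hormone adiponectin, was at 6.21, 14.3 and 18.1 CPM and Fabp4, a fatty acid binding protein, at 66.9, 123 and 171 CPM in tumors 6877, 6880 and 6881; Fabp4 was named after its values were seen. In CPM, Ces1d and Cyp2b10, the latter on 3 counts in all, were ordered in the same way over these 3 tumors. The other members were not, and Cyp1a1 was tied at 0 in tumors 6877 and 6880. In TPM, Fmo2 had this order too (0.0699, 0.520 and 0.582 in tumors 6877, 6880 and 6881). With 3 tumors such a match of order says little. The part of fat or blood vessel RNA in the tumor levels of the members was not tested. Of hepatocyte markers edgeR called 0 of 2 tested (0 at unadjusted p below 0.05, 0 by DESeq2), and their summed level was at most 0.632 TPM in any tumor or lung used.

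The members stand in a wider set of genes that oxidize, conjugate and carry foreign compounds, and most of those that changed were lower in the tumors. Of other P450 genes and their partners edgeR called 12 lower and 2 higher of 22 tested against tumor-bearing lung (median log2 fold change −1.19). Por, the reductase that feeds electrons to microsomal P450 enzymes, averaged 1.48 ± 0.168 TPM in tumors (SD, n = 3) and 8.04 ± 1.14 TPM in tumor-bearing lungs (SD, n = 4) and fell by 2.52 on the log2 scale. Cyp2d22 (−5.23) and Cyp2s1 (−4.99) were lower too, and Cyp1b1, a P450 that Ahr also induces, was higher (1.22, edgeR adjusted p = 0.0288). Cyp2a5, a P450 named after its values were seen, had 0 counts in all tumors and was at least 53.7-fold lower than in tumor-bearing lung, with 3 counts over the 3 tumors as the floor.

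Of the other flavin, carbonyl and aldehyde oxidoreductases 17 were lower and 4 higher of 28 (median −1.37). Cbr2, the carbonyl reductase of mouse lung, had a higher mean TPM than any of the 9 members in each group, with 3.45 ± 1.08 TPM in tumors (SD, n = 3), 257 ± 71.6 TPM in tumor-bearing lungs and 444 ± 126 TPM in normal lungs (SD, n = 4 each), and it fell by 6.61. Aox3, an aldehyde oxidase, fell by 8.03 and Aldh1a7, a close relative of Aldh1a1, fell by 5.74, while Akr1a1, an aldehyde reductase, rose by 1.63. Esterases and epoxide hydrolases were lower in 9 and higher in 2 of 15 (median −2.14), with Ephx1, the microsomal epoxide hydrolase, at −3.73 and Esd, which hydrolyses S-formylglutathione, at 1.52. Conjugating enzymes were lower in 14 and higher in 6 of 34 (median −1.22). Inmt, a methyltransferase of lung, averaged 0.0736 ± 0.0364 TPM in tumors and 61.1 ± 15.0 TPM in tumor-bearing lungs and fell by 9.78, and the glutathione transferases Gsta3 and Gstm1 had log2 fold changes of −7.45 and −5.31, while Mgst1, a microsomal one, rose by 1.33.

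Of the retinoid genes 8 were lower and 6 higher of 31 (median −0.54), near the shares over all genes. Lrat, which esterifies retinol for storage, fell by 6.83, Adh1, which oxidizes retinol, fell by 4.43, and Dhrs3, which reduces retinal, fell by 2.01. Of the receptors and factors that control these enzymes 7 were lower and 1 was higher of 19 (median −0.52). Foxa2, a forkhead factor of lung epithelium, had 0 counts in every tumor and was at least 288-fold lower than in tumor-bearing lung. Ppara, a receptor of fatty acids, fell by 5.97, and Cebpa fell by 1.63 while Cebpb, its relative, rose by 1.504. Xenobiotic transporters were lower in 10 and higher in 1 of 17 (median −1.13). The lists of Ahr and Nfe2l2 targets went both ways, with 2 lower and 3 higher of 7 and 3 lower and 4 higher of 13, and Nqo1, a quinone reductase in both lists, rose by 2.995 (edgeR adjusted p = 0.000167). Against these counts stand the background shares of 23.7% lower and 22.6% higher over all genes.

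**Figure D5:**
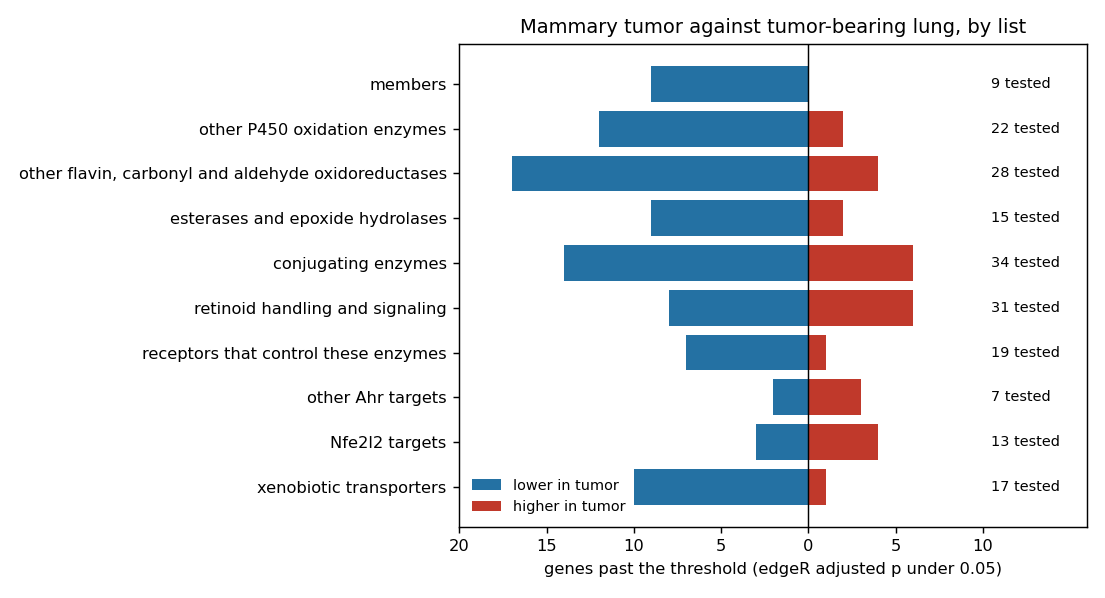
Number of genes called lower (left, blue) and higher (right, red) in mammary tumors against tumor-bearing lungs for the 9 members and 9 lists of related genes (edgeR adjusted p under 0.05), with the number tested at the right. Lower calls outnumber higher calls in all lists but those of Ahr targets (2 and 3) and Nfe2l2 targets (3 and 4).

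Between the lungs, edgeR and voom called 0 genes of these 9 lists. At an unadjusted p below 0.05 edgeR gave at most 1 higher and 3 lower in any list. The factor Nfe2l2, which controls responses to oxidants, had a log2 fold change of −0.68 (SE 0.16, edgeR adjusted p = 0.190, DESeq2 adjusted p = 0.0171). Hsd11b1, which regenerates active glucocorticoid, stood at −0.59 (edgeR adjusted p = 0.192), Papss2, which makes the sulfate donor of the sulfotransferases, at −0.72 (edgeR adjusted p = 0.203) and Cyb5r3, a cytochrome b5 reductase, at −0.43 (edgeR adjusted p = 0.194). DESeq2 called these 4 genes lower, and it called 2.29% of all 12177 genes lower. Cbr2 stood at −0.0630 and Inmt at −0.26 (edgeR adjusted p = 0.916 and 0.366).

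How far reads could be shared between genes differs among the members. Of all 75-base windows of a member's transcripts, 0% occur in another gene for Fmo2 and Ces1d, 1.01% for Aldh1a1 (shared with Aldh1a7), 2.32% for Cyp1a1 (Cyp1a2), 2.76% for Cyp2b10 (Cyp2b13 and a pseudogene), 3.37% for Sult1a1, 5.59% for Cyp4b1 (both with pseudogenes), 6.11% for Fmo1 and 6.52% for Cyp2f2. The windows of Cyp2f2 are shared with Gm15883, an antisense gene at the same locus, which had 1.47 to 5.70 estimated counts in tumors, 47.0 to 73.5 in tumor-bearing lungs and 21.3 to 105.7 in normal lungs. Sult1a1 overlaps Sgf29 on the other strand. Whether the counting used strand is not given in the sources used here. Reads from the windows that Cyp2f2 shares with Gm15883 cannot be told apart without strand, while Sult1a1 and Sgf29 share no such window in their transcripts. For Fmo1 the windows occur chiefly in Gm48161, not analysed here, and in Sgip1, so its level carries that uncertainty.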

How the data were processed

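The members and gene lists were chosen with earlier results of these data known. Per the labels, RNA came from 20 mg of tissue, and 100 ng went into each of 13 libraries, read as single 75 bp reads. The authors deposited estimated counts (expected counts) and TPM. The submitters' processing notes name Salmon, DESeq2 1.18.1 and mm10; the annotation is not given in the sources used here. Per gene, the deposited count divided by TPM differed between libraries only by a factor common to all genes (within 9.77e-15 in log2, 2898 genes), as for counts rebuilt from TPM with 1 length a gene. GENCODE M21 named 46269 IDs and left 410 unnamed; 0 columns had no sample.

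Rounded counts were fitted with group and preparation batch in edgeR 4.0.16 (quasi-likelihood test, TMM scaling, filterByExpr, R 4.3.3) over 8 lungs, or over 11 libraries for the tumors, at an adjusted p of 0.05. Each mouse counted once, with the batch 1 library of mice 6886 and 6888. SE and 95% intervals of the edgeR values were derived from the log2 fold change and the F statistic of its test. They are approximate, above all for genes with few counts. Alternatives were DESeq2 1.42.0, voom and log2 TPM (pseudocounts 1 and 0.1) in limma 3.58.1, other scaling, filters and library choices, single batches, and omission of each library. A block without batch, batch 2 tumors with normal lungs alone, and a group by batch interaction in lung were chosen after seeing the data. Tumors and lungs of 3 mice are paired by animal; their residuals correlated at 0.179, 0.0355 and −0.133 for mice 6877, 6880 and 6881. CPM in log2 had 2 as prior count. Counting intervals (exact, 95%) and floors (3 counts) cover counting error alone, as PCR duplicates cannot be removed without molecular identifiers. Named genes were the members, per list the 3 highest in normal lung and up to 4 with the smallest p in each comparison, the leading markers, and per member the 2 genes with the highest r. Fits were tested on simulated data. Promoters were found for 7 members, not Fmo1 and Ces1d. Some genes the rule names are not reported here.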

Additional observations from a re-analysis of the deposited data

Results flagged for a closer look

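Among 36 sets of values (9 members in TPM and CPM in both groups of lungs), 1 library stood far from the others of its group: tumor-bearing lung 6879 had 5.94 TPM of Aldh1a1, against 10.4, 11.2 and 10.6 TPM in tumor-bearing lungs 6880, 6881 and 6877, and its gap to the nearest was 0.844 of the range. In CPM it had 263, against 240.8, 329 and 285, and was not the lowest. Chance flags about 1 in 20 such sets.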

How the results depend on the processing

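All 9 members kept their direction in both tumor comparisons under all alternatives that tested them, and all 224 values against normal lung and 230 of 234 against tumor-bearing lung kept their side of the threshold. The 4 that lost it were Cyp1a1 on log2 TPM with a pseudocount of 1 (−0.0351) and of 0.1 (−0.32) and with the replicate block and batch (−6.85), and Sult1a1 on log2 TPM with a pseudocount of 1 (−0.64, adjusted p = 0.0626). The pseudocount shrinks genes of low TPM by construction. In batch 2 normal lungs and tumors alone Cyp1a1 was not tested. Neither block fit, with or without batch, changed any other call of a member.

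Between the lungs 12 values without a call turned: Cyp1a1 was −0.13 without scaling factors, −0.00507 without a filter, −0.0235 and −0.18 on log2 TPM (pseudocounts 1 and 0.1), −0.0466 without a batch term, and between −0.13 and 0.18 leaving out 1 library (negative when tumor-bearing lung 6881, −0.13, or normal lung 6887, −0.11, was left out); Cyp2f2 was −0.49 and −0.50 on log2 TPM; Fmo1 was 0.0577 without a batch term, 0.0264 in batch 1 alone and between −0.25 and 0.0158 leaving out 1 library (positive when tumor-bearing lung 6877 was left out). The median of all genes on log2 TPM was −0.23 and −0.54, and −0.13 without scaling factors; the cause of the other turns was not tested.

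Between the lungs edgeR called 6 genes, but 275 without a filter, 426 with DESeq2, 90 and 65 on log2 TPM, 1 without a batch term, 1 with the batch 2 library of mice 6886 and 6888, 2 with repeats summed, 42 with all libraries, 39 in batch 1 alone and 0 to 221 leaving out 1 library. Against tumor-bearing lung 8470 genes became 5322 on log2 TPM with a pseudocount of 1 and 4441 with the replicate block and batch. In batch 2 alone the mean TPM of tumor-bearing lung was 48.8 for Cyp2f2 and 1.33 for Sult1a1 (1 library), and that of Cyp1a1 in normal lung 0.0256. Over 10 libraries r was 0.742 and 0.835 for Cyp1a1 with Rhof and Gpbp1l1, 0.861 and 0.406 for Fmo2 with Wac and Exoc3, 0.790 for Ces1d with Ahdc1 and 0.790 for Sult1a1 with Hspa2. With 1 or 3 counts in the tumors, the depth bounds Cyp1a1 and Cyp2b10 only loosely.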
